A study of Mus musculus with 6 samples.

Results

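Genes of 7 families of amino acid transporters were followed in mouse osteoclasts that had been differentiated with verapamil or without it. The families were SLC1, SLC3, SLC6, SLC7, SLC36, SLC38 and SLC43, and their genes were taken by symbol from the deposited table. Of 53 such genes in the table of 16775, 42 had at least 10 counts summed over the 5 libraries and were kept. The gene just inside that limit was Slc7a13, with 10.6 counts in all, and the gene just outside it was Slc38a11, with 8.22. By family, 12 genes belonged to SLC7, 10 to SLC6, 7 to SLC38, 6 to SLC1, 4 to SLC36, 2 to SLC43 and 1 to SLC3.

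The verapamil group held 3 libraries (replicates 1, 2 and 3) of osteoclasts treated with verapamil, a drug that blocks L-type calcium channels. The control group held 2 libraries (replicates 1 and 3) of osteoclasts labelled CONTROL, and control replicate 2 was not analysed here. Both groups came from wild-type mouse bone marrow macrophages grown in 30 ng/ml M-CSF and turned into osteoclasts with 50 ng/ml RANKL, and their titles give day 5, whereas the protocol describes culture to day 7. The dose and timing of verapamil, a vehicle and the age or number of mice are not given in the labels. Nothing in the labels says that replicates were separate cultures or mice, and the p-values therefore cover only differences among these libraries, which may be technical.

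Amino acid transporters are membrane proteins that carry amino acids into cells, out of cells and across the lysosomal membrane. Many SLC7 carriers are light chains that reach the cell surface only when bound to a heavy chain, which for most of them is Slc3a2 (also called CD98 or 4F2hc). SLC1, SLC6 and SLC38 carriers mostly use the sodium gradient, whereas several SLC36 carriers use protons and SLC43 carriers need no ion. Osteoclasts degrade bone matrix and export acid, and amino acids released in their lysosomes are sensed there by the Rag GTPases, which switch the growth kinase mTORC1. Not every member carries a proteinogenic amino acid. Slc6a8 carries creatine, Slc6a6 taurine, Slc6a4 serotonin, and Slc43a3 purine nucleobases.

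Libraries held 20202340 to 21494523 estimated counts. Over all genes tested, 9.99% were called higher with verapamil and 15.4% lower, which is the background for the marker counts below. Of 16 osteoclast markers, all present, 2 were called higher, 9 lower and 5 not called. Acp5 and Mmp9, called lower, stood at 545 to 748 CPM (counts as a share of the library total after TMM scaling, on the usual per-million scale) in the verapamil libraries and at 1918 to 2678 CPM in the controls. The 2 called higher were Atp6v0d2, at 1009 to 1040.5 CPM with verapamil and 492 and 553 CPM in controls, and Clcn7, at 393 to 411 CPM and 246 and 314 CPM. Nfatc1, Itgb3 and Src were among those not called. Of 20 macrophage markers 3 were called higher and 12 lower, with summed levels of 43119.5 to 46856 CPM in verapamil libraries and 31829 to 32005 CPM in controls. That sum rests on Lyz2, and the other 19 macrophage markers together stood at 7167 to 7297 CPM with verapamil and 10023 to 10916 CPM in controls. Among 15 tested stromal and osteoblast markers 13 were lower and 0 higher by edgeR (0 also at an unadjusted p under 0.05 and by DESeq2). Dendritic cell and class II markers had 1 higher and 7 lower of 8 tested, neutrophil and lymphocyte markers 1 higher and 1 lower of 4 each, and endothelial markers 2 higher and 2 lower of 4. Sums ran from 137 to 142 CPM with verapamil against 169.8 to 202 in controls for the dendritic cell list, from 45.4 to 53.4 with verapamil against 38.8 to 40.9 in controls for neutrophils, from 393 to 426 with verapamil against 211 to 299 in controls for lymphocytes and from 308 to 365 with verapamil against 77 to 108 in controls for endothelium. These sums too rest on few genes. Without Itgax the dendritic cell list stood at 15.7 to 17.4 CPM with verapamil and 104 to 153 CPM in controls, without Csf3r the neutrophil list at 3.34 to 4.49 CPM with verapamil and 5.68 to 9.53 CPM in controls, and without Cd4 the lymphocyte list at 0.826 to 1.38 CPM with verapamil and 2.01 to 2.34 CPM in controls. Vwf and Kdr made up nearly all of the endothelial sum, and Pecam1 and Emcn were the 2 called lower (log2 -3.00 and -1.89; adjusted p = 0.0142 and 0.0236). Their part in the results on transporters was not tested. In bulk RNA, fewer cells of a type and less RNA per cell cannot be told apart. Control replicate 1 stood apart from the other libraries. Against the mean of all libraries, its genes in the shortest of 4 exon length classes were higher by a median of 0.35 on the log2 scale and those in the longest class stood at a median of -0.32, while the other 4 libraries stayed between -0.14 and 0.14 in those classes.

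Verapamil-treated osteoclasts had more RNA of the cystine carrier Slc7a11, of the SLC36 carriers Slc36a4 and Slc36a1, of the creatine carrier Slc6a8 and the taurine carrier Slc6a6, and of the neutral amino acid carriers Slc38a1, Slc38a2 and Slc38a7. They had less of the glutamine carrier Slc1a5 and of several rare transcripts, led by Slc6a4 and Slc38a4. Of the 42 genes 31 passed the filter on low counts and were tested, and 9 of these were called higher and 6 lower by edgeR's quasi-likelihood test with Benjamini-Hochberg adjustment (adjusted p under 0.05 over 12619 genes). Among all genes tested, 9.99% were called higher, 15.4% were called lower and 25.4% were called in either direction. The shares among the tested transporters were 29%, 19.4% and 48.4%. Slc1a6, Slc38a4, Slc6a17 and Slc6a4, 4 of the tested genes, had under 10 counts in each verapamil library and passed only through the controls, so a difference was built into their selection. Without them 9 of 27 were higher and 3 lower. The median log2 fold change of the 31 genes was 0.15, against -0.01 over all genes and -0.04 over 167 other tested genes of the Slc nomenclature. Upper quartile scaling shifted the median of all genes to -0.13, by more than 0.1. Higher genes made up 28.2% of all calls under that scaling and 39.4% under TMM. With upper quartile scaling 9 transporters were higher and 7 lower, and their median was 0.03.

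**Figure D1:**
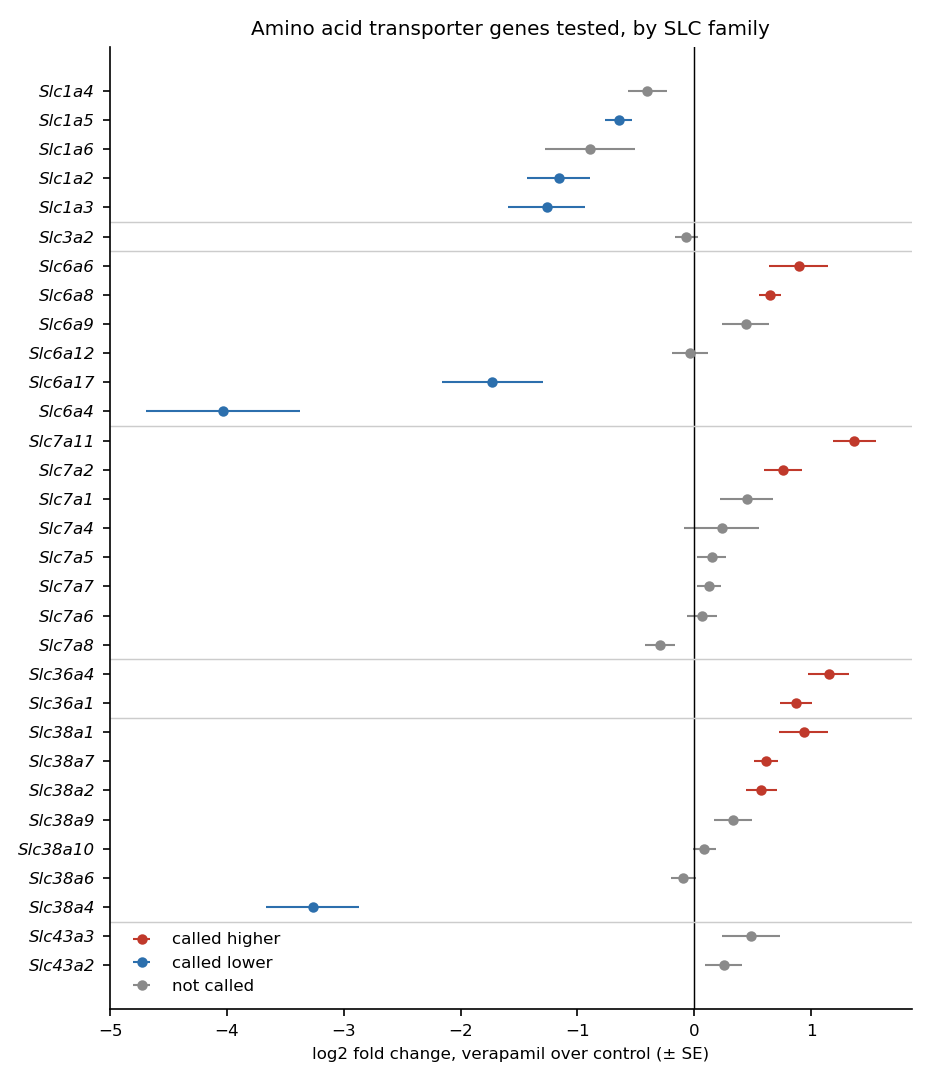
Log2 fold change, verapamil over control, of the 31 tested transporter genes, grouped by SLC family from top to bottom, with bars for the standard error of edgeR's test. The 9 red points were called higher, the 6 blue points lower and the 16 grey points were not called, and the SLC1 genes all lie left of zero.

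Slc7a11 (Entrez 26570, chromosome 3, 50364936 to 50499087 on GRCm38) encodes the light chain of system xc-, which takes up cystine in exchange for glutamate and so feeds glutathione synthesis. It had 237, 295 and 287 CPM in the verapamil libraries, against 87.9 and 123 CPM in the controls. All verapamil libraries lay above both controls. The rise was 2.58-fold (log2 1.37, SE 0.183, adjusted p = 0.00386), the largest fold among the called rises of these families. It was called under all 12 alternative settings, with log2 fold changes of 1.11 to 1.63.

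A transcript start of Slc7a11 is shown because its RNA rose most and because the C/EBP-ATF response element, through which the stress factor ATF4 acts on amino acid response genes, is known by its letters. The window runs from 150 bases before to 25 bases after a start in the RefSeq promoter table (GRCm38.p6, chr3:50443589-50443763, minus strand). This start lies inside the range given above for the gene, not at its end, and capitals mark each match to TGATGNAA or its reverse complement TTNCATCA.
Slc7a11: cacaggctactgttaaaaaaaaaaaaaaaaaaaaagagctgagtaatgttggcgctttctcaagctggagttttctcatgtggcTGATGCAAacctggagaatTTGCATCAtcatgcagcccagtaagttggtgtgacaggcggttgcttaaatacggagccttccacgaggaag
One match begins 66 bases before the start and the other, on the opposite strand, 47 bases before it. RefSeq promoter windows of 300 bases (250 before to 50 after the start) were found for 29 of the 42 genes, 48 windows in all. Slc7a11, Slc1a4 and Slc7a7 were the 3 genes with a match, in 4 of the 48 windows, and 3.97% of 32851 windows of all genes held one. A match is a description of letters and not a measured binding site. Slc1a4 and Slc7a7 were not called.

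Slc3a2 (Entrez 17254), the heavy chain with which Slc7a11 and most other light chains pair, had 311, 313 and 323 CPM in verapamil libraries and 351 and 309.8 CPM in controls. The groups overlapped, at a log2 fold change of -0.07 with an SE of 0.0979 and an adjusted p of 0.64. It was -0.19 under upper quartile factors and turned to 0.03 without control replicate 1. Per kb of exon length, Slc7a11 stood at 0.234 to 0.289 of the Slc3a2 level in verapamil libraries and at 0.0769 and 0.122 in controls. This ratio restates the values of both genes and is no separate result.

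The other light chains that pair with Slc3a2 were not called. Slc7a5, the LAT1 exchanger of leucine and other large neutral amino acids, had 10.3, 9.5 and 9.41 CPM with verapamil and 8.99 and 8.54 CPM in controls (log2 0.15, SE 0.124, adjusted p = 0.39). Slc7a8, the related LAT2 exchanger, had 46, 52.6 and 47.9 CPM with verapamil against 53.6 and 65.7 CPM in controls. Every verapamil library lay below both controls, but the log2 fold change of -0.29 missed the threshold (SE 0.129, adjusted p = 0.149). It passed as lower under upper quartile factors (-0.41, adjusted p = 0.0409), after removal of the length trend (-0.37, adjusted p = 0.0152) and in the absence of control replicate 1 (-0.42, adjusted p = 0.00893). Slc7a7 and Slc7a6, exchangers of cationic for neutral amino acids, had 37.6, 38.5 and 40.5 CPM and 14.7, 16.9 and 14.3 CPM with verapamil, against 35.1 and 36 CPM and 15.1 and 14 CPM in controls. Their log2 fold changes were 0.13 (adjusted p = 0.378) and 0.07 (adjusted p = 0.711), and the second turned to -0.05 under upper quartile factors and to -0.01 without verapamil replicate 2. Set against Slc7a8 per kb of exon length, Slc7a11 RNA was 2.14 to 2.48 times as high in verapamil libraries and 0.68 and 0.778 times in controls.

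Cationic amino acid carriers of the CAT group, unlike the exchangers Slc7a7 and Slc7a6, need no heavy chain. Slc7a2, the CAT2 carrier of arginine and lysine, rose to 14.1, 15.5 and 14.9 CPM in verapamil libraries, against 7.46 and 10.1 CPM in controls. This was a log2 fold change of 0.76 (SE 0.162), with an adjusted p of 0.0192. Leaving out any verapamil library ended the call (adjusted p from 0.0682 to 0.083), with estimates of 0.72 to 0.80. Slc7a1, the more widespread CAT1 carrier, had 18.2, 23.9 and 22.8 CPM with verapamil and 12.2 and 19.5 CPM in controls, which overlapped. Its log2 fold change was 0.45 (SE 0.228, adjusted p = 0.19), or 0.16 without control replicate 1 and 0.83 without control replicate 3 (adjusted p = 0.00194). Slc7a4, a CAT relative with no settled substrate, had 1.7 to 2.61 CPM with verapamil and 1.32 and 2.25 CPM in controls and was not called (adjusted p = 0.607). Slc7a4 shares 13.3% of its exon bases with P2rx6 on the opposite strand, and whether counting used strand is not stated.

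**Figure D2:**
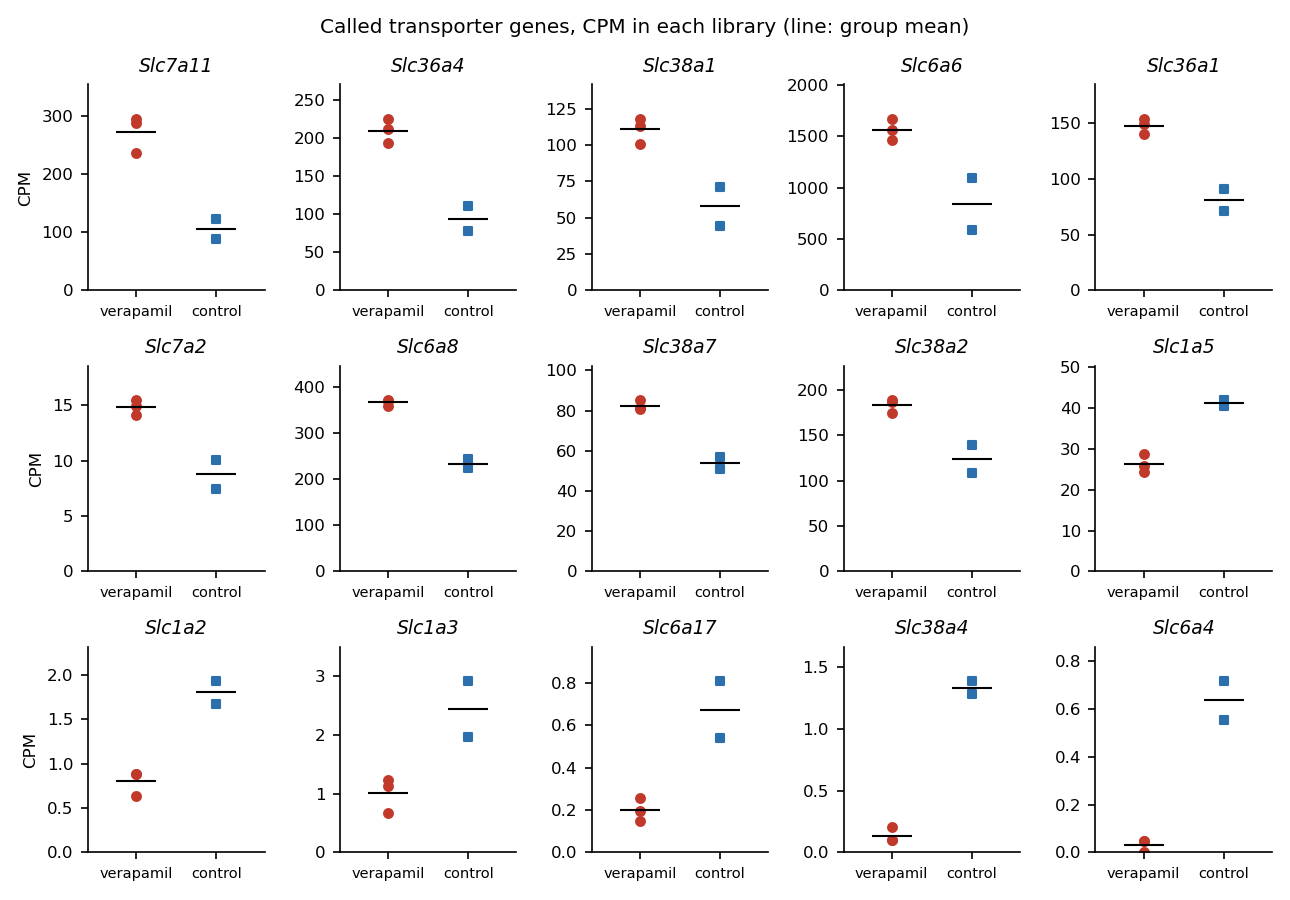
CPM of the 15 called transporter genes in each library, with verapamil left (red circles, n = 3) and control right (blue squares, n = 2) and a line at each group mean. Axes start at 0 and differ between genes, and no called gene has overlapping groups. The 5 genes in the lowest row lie under 3 CPM.

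Slc36a1 (PAT1) is a proton-coupled carrier that exports small neutral amino acids from lysosomes. Slc36a1 (Entrez 215335, chromosome 11, 55204322 to 55236330) had 140.3, 154 and 149.7 CPM in verapamil libraries and 71.1 and 91.1 CPM in controls. It rose 1.83-fold (log2 0.87, SE 0.135, adjusted p = 0.00648). Slc36a4 (PAT4), a carrier of proline and tryptophan that does not depend on protons, had 193, 225 and 211 CPM with verapamil, against 77.3 and 111 CPM in controls. Its rise was 2.22-fold (log2 1.15, SE 0.176, adjusted p = 0.00618). Both genes had groups far apart and were called under all 12 alternatives, at log2 0.71 to 1.06 for Slc36a1 and 0.92 to 1.44 for Slc36a4. The ratio of Slc36a1 to Slc36a4 per kb of exon length was 0.831 to 0.879 with verapamil and 1.11 and 0.99 in controls.

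Slc38a7 and Slc38a9 also act at the lysosome, the first described in human cells as an exporter of glutamine and the second as an arginine sensor that signals to the Rag GTPases. Slc38a7 (Entrez 234595) had 81.5, 85.4 and 80.8 CPM with verapamil and 50.9 and 57.1 CPM in controls, without overlap. It rose 1.53-fold (log2 0.61, SE 0.103, adjusted p = 0.00875), and leaving out any verapamil library took the adjusted p to between 0.0512 and 0.0586. Slc38a9 had 32.3, 37.1 and 33.2 CPM in verapamil libraries, against 23.1 and 31.2 CPM in controls. With a log2 fold change of 0.33 it was not called (SE 0.16, adjusted p = 0.171). The estimate fell to 0.14 if control replicate 1 was left out, was 0.57 if control replicate 3 was (adjusted p = 0.00289), and was 0.10 after removal of the length trend.

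The starts of Slc36a1 and Slc38a7 are shown because factors of the MiT group, such as TFEB, act on lysosomal genes through an E-box of known letters. Capitals mark the E-box CACGTG and, in Slc36a1, the longer TCACGTGA that contains it; both read the same on either strand. Each window runs from 150 bases before to 25 bases after the RefSeq start (GRCm38.p6, chr11:55204190-55204364, plus strand, and chr8:95853467-95853641, minus strand).
Slc36a1: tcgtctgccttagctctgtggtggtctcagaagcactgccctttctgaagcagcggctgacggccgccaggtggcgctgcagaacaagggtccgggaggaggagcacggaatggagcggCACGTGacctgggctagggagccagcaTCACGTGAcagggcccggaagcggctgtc
Slc38a7: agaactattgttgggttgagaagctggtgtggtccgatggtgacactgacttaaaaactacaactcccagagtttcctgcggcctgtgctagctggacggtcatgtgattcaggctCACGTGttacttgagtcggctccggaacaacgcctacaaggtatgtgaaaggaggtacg
The Slc36a1 window held CACGTG beginning 31 bases before the start and TCACGTGA beginning 4 bases before it and running across it. In Slc38a7 the match begins 34 bases before the start. CACGTG was found in 4 of the 48 transporter windows (Slc36a1, Slc38a7, Slc1a6 and Slc7a14), and 7.15% of all 32851 windows held it. Of these genes, the ones shown were called higher, whereas Slc1a6 was not called and Slc7a14 was not tested. TCACGTGA was found in 1 of the 48 windows, that of Slc36a1, and 0.974% of all windows held it. These are matches of letters in a window of sequence and were not tested for binding.

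Sodium-coupled neutral carriers of the plasma membrane moved in both directions. Slc38a1 and Slc38a2 (SNAT1 and SNAT2) concentrate glutamine and alanine in the cell. Slc38a1 had 101, 118 and 113 CPM in verapamil libraries and 44.3 and 71.2 CPM in controls, a 1.92-fold rise (log2 0.94, SE 0.21, adjusted p = 0.0224). Slc38a2 had 189, 187 and 174 CPM with verapamil against 108 and 139 CPM in controls, a 1.49-fold rise (log2 0.58, SE 0.133, adjusted p = 0.0252). Neither gene's groups overlapped, and both calls were lost without any of the 3 verapamil libraries (adjusted p from 0.0661 to 0.108).

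Slc1a5 (ASCT2), an exchanger that brings in glutamine, moved the opposite way. It had 28.8, 24.3 and 25.7 CPM with verapamil and 40.4 and 42 CPM in controls. The fold of 0.638 (log2 -0.65, SE 0.117) had an adjusted p of 0.011, which was 0.0675 without verapamil replicate 2 and 0.0707 without replicate 3. Per kb of exon length, the level of Slc38a2 was 3.9 to 4.56 times that of Slc1a5 in verapamil libraries and 1.58 and 1.96 times in controls. Slc1a4 (ASCT1), a carrier of alanine, serine and cysteine, had 3.84, 4.44 and 4.63 CPM with verapamil and 6.11 and 5.25 CPM in controls. It was not called (log2 -0.40, SE 0.167, adjusted p = 0.13), though it passed without control replicate 3 (adjusted p = 0.0326).

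Slc38a6 and Slc38a10, abundant SLC38 genes with less settled roles, were not called. Slc38a6 had 137, 145 and 137 CPM with verapamil and 161 and 137 CPM in controls, and Slc38a10 had 169, 171 and 165 CPM with verapamil and 149 and 168 CPM in controls. The log2 fold change of Slc38a6 was -0.09; it was 0.03 without control replicate 1, and it passed as lower without control replicate 3 (-0.21, adjusted p = 0.0339). Slc43a2 (LAT4), a carrier of leucine, phenylalanine and related amino acids, was among the most abundant genes of these families. It had 806, 1003 and 905 CPM with verapamil and 652 and 865 CPM in controls. The groups overlapped (log2 0.25, SE 0.159, adjusted p = 0.271), with an estimate of 0.07 when control replicate 1 was left out and of 0.47 when control replicate 3 was (adjusted p = 0.00611). Slc43a3 had 9.94, 12.8 and 9.71 CPM in verapamil libraries against 5.8 and 9.56 CPM in controls (log2 0.49, SE 0.248, adjusted p = 0.19), and passed as higher without control replicate 3 (0.90, adjusted p = 0.00346).

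Carriers of the SLC6 family use sodium and chloride. Slc6a8 rose with the smallest standard error of the called genes. It had 373, 369.6 and 360.3 CPM in verapamil libraries and 225 and 244 CPM in controls, 1.57-fold (log2 0.65, SE 0.0926, adjusted p = 0.0049), and was called under all 12 alternatives (log2 0.53 to 0.71). Slc6a6, the taurine carrier (Entrez 21366, chromosome 6, 91684048 to 91759063), had the highest mean CPM of all 42 genes in both groups, though in control replicate 1 Slc43a2 stood higher. It had 1461, 1668 and 1563 CPM with verapamil and 591 and 1093 CPM in controls. The controls differed from each other by 1.85-fold, and the log2 fold change of 0.89 passed narrowly (SE 0.254, adjusted p = 0.0474). Leaving out control replicate 1 gave 0.52, and leaving out control replicate 3 gave 1.41. The stricter filter ended the call (adjusted p = 0.0601), as did leaving out any verapamil library (adjusted p from 0.119 to 0.141). Slc6a9 and Slc6a12, carriers of glycine and of betaine and GABA, were not called (log2 0.44 and -0.03; adjusted p = 0.159 and 0.895). Slc6a9 passed as higher without control replicate 1 (0.65, adjusted p = 0.0431), and Ccdc24 on the opposite strand overlaps 27.8% of its exon sequence.

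**Figure D3:**
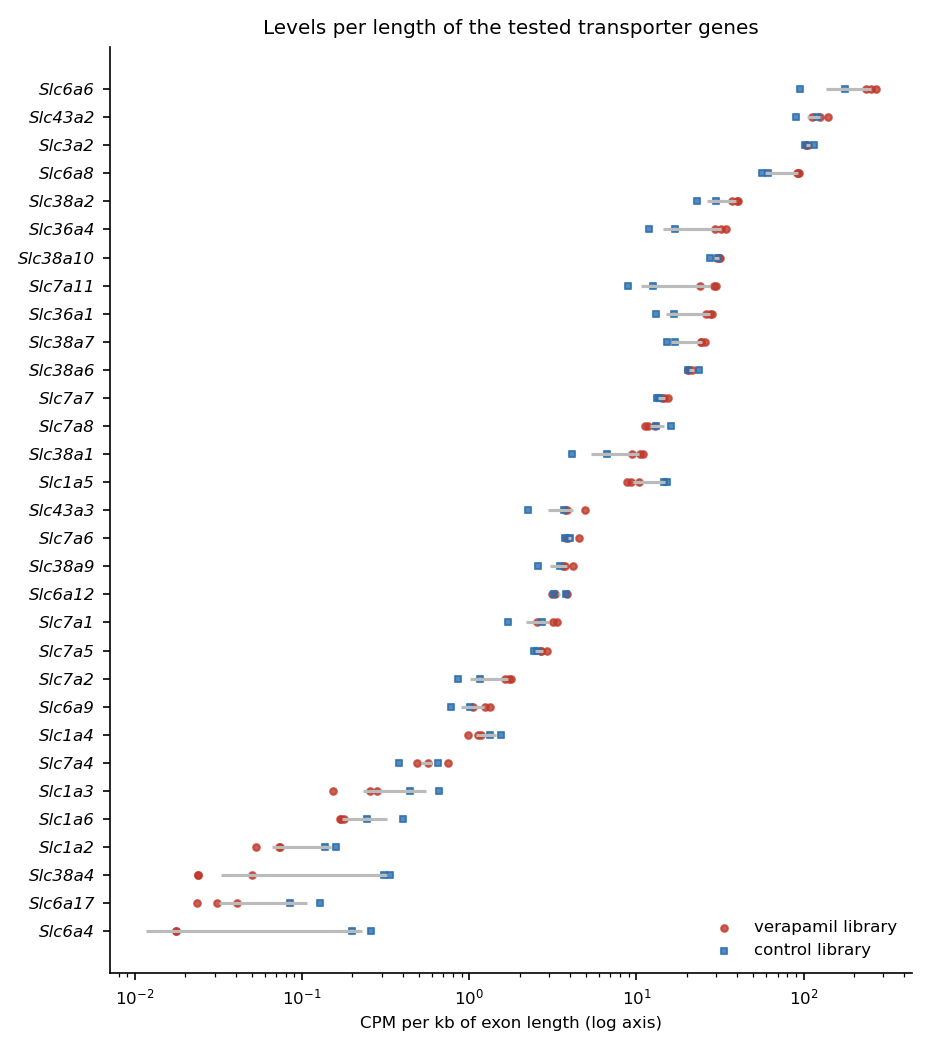
Level of the 31 tested transporter genes in each library as CPM per kb of exon length on a log axis, ordered by the verapamil mean, with red circles for verapamil, blue squares for control and a grey line between group means (libraries at 0 are not drawn). Slc6a6, Slc43a2, Slc3a2 and Slc6a8 stand above the others in both groups, and the genes called lower lie mostly in the lowest decades.

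On the scale of CPM per kb of exon length, which allows levels of different genes to be compared, the same 4 genes led in both groups. Slc6a6 stood at 253 ± 16.7 with verapamil (SD, n = 3) and 136 ± 57.4 in controls (SD, n = 2). Slc43a2, Slc3a2 and Slc6a8 followed at 126 ± 13.7, 104 ± 2.28 and 92.7 ± 1.66 with verapamil and at 105 ± 20.9, 109 ± 9.55 and 59.2 ± 3.29 in controls. In controls the order of the first 3 lies within their spread. Slc7a11 ranked 8 with verapamil (27.7 ± 3.19) and 14 in controls (10.7 ± 2.53), and Slc36a4 ranked 6 (32.1 ± 2.44) and 12 (14.4 ± 3.69). Slc1a5 ranked 15 with verapamil (9.51 ± 0.832) and 10 in controls (14.9 ± 0.422). Neighbours from rank 7 to rank 10 with verapamil, Slc38a10, Slc7a11, Slc36a1 and Slc38a7, lay between 24.8 and 31.1. The spread (SD) of Slc7a11 overlapped that of each of the others, so its place among them is not settled. Summed over all 42 genes, the level was 4436 to 4989 CPM in verapamil libraries and 2803 and 3674 CPM in controls, and Slc6a6 and Slc43a2 made up 51.1% to 53.5% of that with verapamil and 44.3% and 53.3% in controls.

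Glutamate carriers and other rare transcripts made up the rest of the genes called lower. Slc1a3 (GLAST), a high-affinity glutamate carrier best known from glia, had 1.13, 0.671 and 1.23 CPM with verapamil and 2.92 and 1.96 CPM in controls (log2 -1.26, SE 0.33, adjusted p = 0.0372). Slc1a2 (GLT-1), the other main glial glutamate carrier, had 0.639, 0.878 and 0.887 CPM with verapamil against 1.93 and 1.67 CPM in controls (log2 -1.16, SE 0.267, adjusted p = 0.0245). Both calls ended in the absence of control replicate 1 (adjusted p = 0.0774 and 0.0519; log2 -0.94 and -1.05) and without any verapamil library (adjusted p from 0.0748 to 0.105).

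Slc38a4, a neutral carrier best known from liver, had 8 counts in the verapamil libraries together and 61 in the controls. Its ratio per total count was 0.0881, with an exact 95% binomial interval of 0.0364 to 0.185 that covers counting error only. Slc6a4, the serotonin transporter, had 2 counts with verapamil and 29 in controls, a ratio of 0.0463 (0.00535 to 0.183). Slc6a17, a vesicular carrier of neutral amino acids in neurons, had 12 counts with verapamil and 31 in controls, a ratio of 0.26 (0.122 to 0.521). By edgeR the adjusted p was 0.00285 for Slc38a4, 0.00776 for Slc6a4 and 0.0322 for Slc6a17. All of them passed the filter on low counts only through the controls. A difference was thus built into their selection, and neither these p-values nor the intervals allow for that. The call of Slc6a17 was lost by DESeq2's Wald test (adjusted p = 0.0955), without a filter (0.0518), without control replicate 3 (0.0833) and without any verapamil library (adjusted p from 0.0708 to 0.111).

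Markers of the stromal and of the erythroid and megakaryocyte lists were lower in the same libraries, as was the dendritic cell sum given above. The neutrophil, lymphocyte and endothelial sums were higher, but without Csf3r and Cd4 the neutrophil and lymphocyte sums were lower. All 18 stromal and osteoblast markers together stood at 508 to 519.5 CPM in verapamil libraries and 1304 to 1507 CPM in controls. The 7 erythroid and megakaryocyte markers in the table stood at 1.18 to 1.67 CPM with verapamil and 22.7 to 35.3 CPM in controls, with Hba-a1 at 0 in every library, and 3 of the 3 tested fell, Pf4 among them (0.775 to 0.789 CPM with verapamil against 32.7 and 20.2 CPM in controls). Without Pf4 the other 6 stood at 0.394 to 0.885 CPM with verapamil and 2.52 to 2.61 CPM in controls. The part of these cell type markers in the lower counts of these rare carriers was not tested.

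The other 11 genes had too few counts to be tested. Slc1a1, a neuronal and epithelial carrier of glutamate and cysteine, had 3 counts with verapamil and 19 in controls, a ratio of 0.106 (95% interval 0.0201 to 0.36). It was called lower in the fit without a filter (log2 -2.91, adjusted p = 0.0493), and 4430402I18Rik on the opposite strand overlaps 31.9% of its exon sequence. Slc36a2 had 14 counts with verapamil and 22 in controls (ratio 0.427, 0.202 to 0.873). Slc36a3, Slc6a13, Slc6a15, Slc6a19, Slc7a3, Slc7a13, Slc7a14 and Slc7a15 had intervals that included 1. Slc1a6, which was tested, had 21 counts with verapamil and 30 in controls and was not called (adjusted p = 0.136). At this depth differences in such genes were mostly not detectable.

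Exon length differed between the genes called in each direction. The median was 6186 bases for the 9 genes called higher, 4263 for the 6 called lower and 3714 for the 16 not called. Over 12477 tested genes with a known length, the median log2 fold change ran from -0.23 in the shortest of the 4 classes to 0.19 in the longest. Of 20 transporters with at least 10 CPM with verapamil, 17 were higher in control replicate 3 than in control replicate 1, by a median of 1.29-fold. With the length trend of each library removed, all 9 genes stayed higher and all 6 stayed lower, and Slc7a8 joined the lower ones. The log2 fold change was then 1.11 for Slc7a11, 0.98 for Slc36a4, 0.75 for Slc6a6, 0.73 for Slc36a1, 0.69 for Slc38a1 and 0.53 for Slc7a2.

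**Figure D4:**
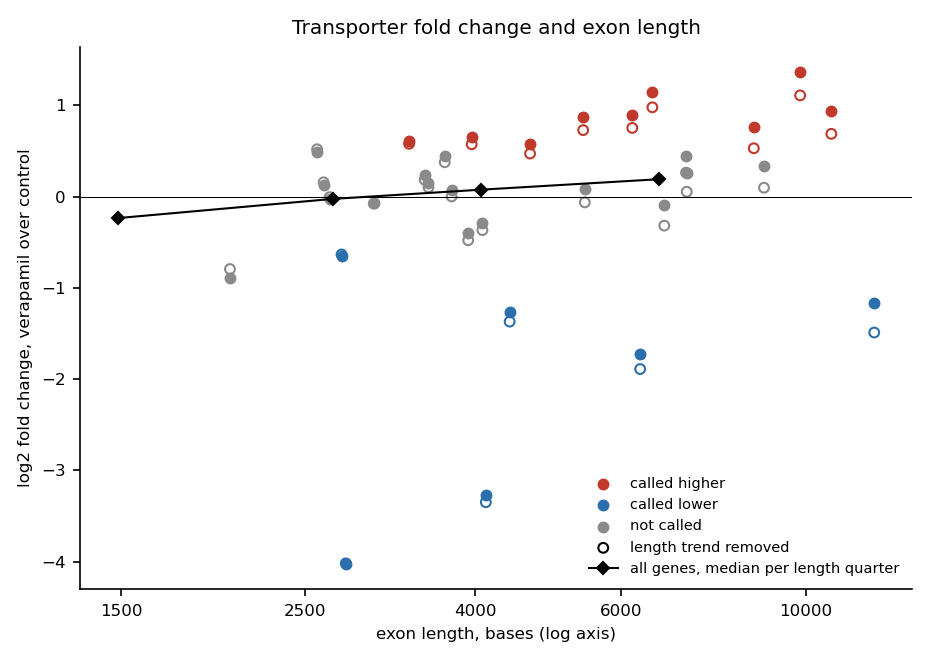
Log2 fold change of the 31 tested transporter genes against exon length in bases (log axis), as filled points from the fit of all 5 libraries and open points with the length trend removed, with colours for the calls of the first fit. Black diamonds give the median of all tested genes in each of 4 exon length classes, which runs from -0.23 to 0.19, and the red points stay above zero in both fits.

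Groups that did not overlap were common among all genes, 56.7% of those tested, 27.7% with verapamil higher and 29% with verapamil lower. Among the tested transporters the shares were 45.2% (14 genes) and 29% (9 genes). Slc1a6, Slc38a4, Slc6a17 and Slc6a4 were among those 9 and passed the filter only through the controls. A difference was thus built into their selection. Within the verapamil group the libraries lay close, with a median coefficient of variation of 6.77% and a highest of 15.7% over the 20 transporters with at least 10 CPM. The controls differed by ratios of replicate 3 to replicate 1 from 0.85 to 1.85 over those genes.

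Other genes of amino acid handling were counted by list. Of 17 tested amino acid and peptide carriers outside the 7 families 5 were higher and 1 lower, with a median of 0.25. These shares were 29.4% and 5.88%, against 9.99% and 15.4% over all genes. Mfsd12, which is needed for import of cysteine into lysosomes, had 820, 800.4 and 835 CPM in verapamil libraries and 448 and 432 CPM in controls (log2 0.90, SE 0.0901, adjusted p = 0.00153). Ctns, the lysosomal cystine exporter, had 82.9, 79.6 and 75.2 CPM against 46.6 and 54.9 CPM in controls (log2 0.64, SE 0.116, adjusted p = 0.0109). Slc15a3, a lysosomal peptide and histidine carrier, rose by 0.83 (adjusted p = 0.00208) and Slc25a44, a mitochondrial carrier of branched-chain amino acids, by 1.00 (adjusted p = 0.0067).

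Of 40 tested genes of lysosomal amino acid sensing and mTORC1 control, 9 were higher and 0 lower by edgeR (1 lower at an unadjusted p under 0.05, and 0 by DESeq2), with a median of 0.07. That was 22.5% called, against 25.4% over all genes (9.99% higher and 15.4% lower). Tsc1, a brake on mTORC1, had 53.9, 61.9 and 59.9 CPM with verapamil against 22.7 and 37.6 CPM in controls (log2 0.96, SE 0.22, adjusted p = 0.0247). The folliculin partner Fnip1 had 159, 177 and 185 CPM against 71.2 and 109 CPM in controls (log2 0.95, SE 0.193, adjusted p = 0.0165). Fnip2 and the Rag GTPase gene Rragd were the other named genes, with log2 fold changes of 1.69 and 1.39. With the length trend removed 14 genes of this list were called in either direction.

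Genes of the amino acid response to ATF4 went both ways, 5 of 29 higher and 5 lower, with a median of 0.02. Each share was 17.2%, against 9.99% higher and 15.4% lower over all genes. Atf3, a stress-induced transcription factor, had 284, 263 and 296 CPM with verapamil against 172 and 166 CPM in controls (log2 0.74, SE 0.099, adjusted p = 0.00395). Psat1, an enzyme of serine synthesis, fell to 10.6, 9.92 and 9.86 CPM, against 20 and 21.2 CPM in controls (log2 -1.02, SE 0.11, adjusted p = 0.00189). Nupr1 and Ddit4, stress-induced regulators, fell by 1.27 and 0.90 (adjusted p = 0.0103 and 0.0086). Atf4 itself had 137, 146 and 143 CPM with verapamil and 130.4 and 102 CPM in controls (log2 0.29, adjusted p = 0.145), and Asns, the asparagine synthetase often used to read this response, had 15.1, 13.9 and 15 CPM with verapamil and 15.5 and 13.8 CPM in controls (log2 0.00, adjusted p = 0.981); both were chosen after their values were seen.

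The list of cystine use and glutathione genes, which also holds antioxidant genes and their regulators, had 1 higher and 5 lower of 19 tested, with a median of -0.29. The higher one was Nfe2l2, which encodes the antioxidant regulator NRF2, an activator of Slc7a11. Nfe2l2 had 373, 355 and 393 CPM with verapamil against 253 and 274 CPM in controls (log2 0.51, SE 0.0991, adjusted p = 0.0145) and was chosen after its values were seen. Gss, the glutathione synthetase, had 29.2, 26.9 and 29.4 CPM with verapamil against 51.4 and 41.8 CPM in controls (log2 -0.71, SE 0.128, adjusted p = 0.0111). Nqo1 and Hmox1, antioxidant enzymes, fell by 1.21 and 0.83 (adjusted p = 0.00324 and 0.00276), and Ggt5, a glutathione hydrolase, fell by 2.41 (adjusted p = 0.00344). With the length trend removed 10 genes of this list were called. Among amino acid metabolism enzymes 3 of 28 were higher and 8 lower, with a median of -0.23. Bcat1, the cytosolic branched-chain aminotransferase, had 3.89, 3.05 and 3.7 CPM with verapamil and 12 and 11.8 CPM in controls (log2 -1.75, SE 0.154, adjusted p = 0.00107). Il4i1, a secreted amino acid oxidase, fell by 3.67 on the log2 scale (adjusted p = 0.0113), Pycr1 of proline synthesis fell by 1.03 (adjusted p = 0.0217), and Kynu of tryptophan breakdown rose by 1.36 (adjusted p = 0.0105). Of 20 cytosolic aminoacyl-tRNA synthetases 2 were higher, Qars and Sars (log2 0.49 each), and 0 lower by edgeR (0 also at an unadjusted p under 0.05 and by DESeq2). Their background, as for every list, is 9.99% higher and 15.4% lower over all genes.

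**Figure D5:**
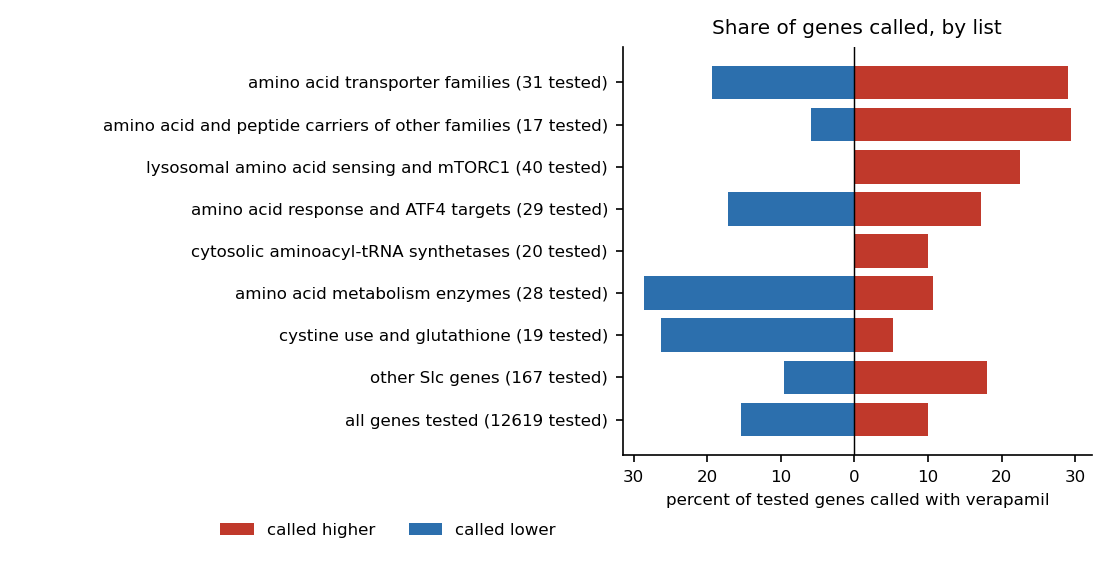
Percent of tested genes called higher (red, to the right) and lower (blue, to the left) with verapamil in the transporter families, 6 lists of amino acid handling, the other Slc genes (which share members with the carriers of other families) and all genes. The transporter families reach 29% higher and 19.4% lower, all genes 9.99% and 15.4%, and the sensing list has no gene called lower. The lower transporters include Slc38a4, Slc6a17 and Slc6a4, which passed the filter only through the controls. Without the 4 genes that passed in this way, 9 of 27 transporters were higher and 3 lower.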

How the data were processed

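The authors deposited estimated counts of reads per gene with 2 decimals, per the file headers and values, without normalization. RNA was extracted with Trizol and libraries were made from 1.3 ug of total RNA with a SMARTER mRNA kit, per the labels' protocols. The submitters' processing notes give the builds GRCm38 and mm10, and no aligner, counter or annotation is given in the sources used here. Counts were rounded. edgeR 4.0.16 (R 4.3.3) used TMM, its default filter (minimum count 10, total 15) and a quasi-likelihood fit on group alone, over 12619 genes (3 residual degrees of freedom). The SE of a log2 fold change is its size over the root of edgeR's F. Alternatives were DESeq2 1.42.0, RLE and upper quartile factors, no filter, a stricter filter (1 CPM in 3 libraries), a replicate block, removal of each library's trend with exon length, and leaving out each library. The script was tested on simulated counts. Exon lengths are unions of GENCODE M21 exons; positions and sequences are RefSeq's. Genes named with values were all called transporters, 18 fixed ones, and up to 4 called genes with the largest change per pathway list. Some other transporters (Slc38a6, Slc38a10 and Slc43a3 among them), Atf4, Asns, Nfe2l2 and cell type markers were also given values, outside that rule. Members and lists were chosen with earlier results of these data known. Variance between libraries exceeded counting in every pair, within groups by 2.04 to 4.2 times among verapamil libraries and 31.1 times between controls. Each library was counted as its own replicate, but this excess does not show that they came from separate cultures or mice. The values of 1 transporter gene that was not tested are not reported here.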

Additional observations from a re-analysis of the deposited data

How the results depend on the processing

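Over 12 alternatives, 6 of the 15 called transporters (Slc7a11, Slc36a1, Slc36a4, Slc6a8, Slc38a4 and Slc6a4) were called wherever they were tested, and none of the 15 changed sign. The 2 lower ones of these 6, Slc38a4 and Slc6a4, passed the default filter only through the controls. A difference was thus built into their selection. RLE factors gave the same 15 calls. Transporters called higher numbered 4 to 13 and those called lower 2 to 8 when 1 library was left out (4 higher without any verapamil library, 10 without control replicate 1, 13 without control replicate 3), and 2 were lower with the stricter filter, under which Slc1a2, Slc38a4, Slc6a17 and Slc6a4 were not tested. Every fit with 1 library left out has fewer residual degrees of freedom, and those without a control also hold no spread between controls. The transporters' median log2 fold change stayed between 0.03 and 0.25 over all alternatives, and between 0.11 and 0.16 with 1 library left out. All genes called were 3200, 4853 with the length trend removed and 1460 to 7808 with 1 library left out. With 1 library left out, calls ranged over 3 to 12 for carriers of other families, 4 to 16 for metabolism enzymes, 3 to 18 for the ATF4 list, 3 to 10 for glutathione, 4 to 27 for sensing and 0 to 8 for the synthetases (0 without any verapamil library by edgeR, where 2 had an unadjusted p under 0.05). With the length trend removed they were 10 for glutathione, 14 for sensing and 4 for the synthetases. The cause was not tested. The replicate numbers of the titles join 2 pairs (r of deviations 0.289 and 0.0224). Deviations of 2 controls from their mean are exact opposites, and verapamil replicate 2 with control replicate 3 also gave 0.289. The check therefore cannot show or exclude a pairing. With the replicate block, which leaves 1 residual degree of freedom, 3317 genes were called, and 9 transporters higher and 6 lower.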
